A study of Homo sapiens with 12 samples.

Results

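The genes described here are 10 heat shock chaperones and co-chaperones of muscle: CRYAB, HSPB1, HSPB7, HSPA1A, HSPA1B, HSPA8, HSPH1, DNAJB1, BAG3 and HSP90AA1. They were taken by symbol from a table of read-pair counts for 60583 genes, and all 10 were present and passed the filter on low counts. The list was chosen by function, but with measured values in view: it was selected on knowledge of the scaffold difference of HSPA1A and of a wider heat shock list in these libraries. Scaffold values of the 10 genes are therefore given as a description, and counts of genes that passed a test in that comparison support nothing about them. The cells were cardiomyocytes made from RUES2, an established human embryonic stem cell line of wild-type genotype, kept in RPMI with B27 and insulin. At day 50 they were placed for 3 days on an electrospun scaffold, either 8% polyvinyl alcohol (PVA, which does not conduct) or 9.75% PEDOT:PSS in PVA (a conducting polymer blend, called PEDOT here). Each scaffold had 3 biological replicates with 2 technical libraries each, 12 libraries of ribodepleted total RNA in all. All come from 1 cell line, and the labels do not say whether replicates were separate differentiations or what separates technical libraries, so each p-value reflects the spread among these samples, which may be technical.

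Library totals were 19117192 to 30954829 counts. The 12 cardiomyocyte markers checked were all above the filter, and together they made up 56660 to 79260 CPM on PVA and 65260 to 92680 CPM on PEDOT. CPM are counts scaled to the size of the library. The 8 fibroblast markers summed to 803.8 to 4056 CPM on PVA and 709.2 to 7033 CPM on PEDOT. The pluripotency markers POU5F1, NANOG, SOX2 and LIN28A were under 3 counts per library on average. In such bulk RNA, fewer cells of a type and less RNA per cell cannot be told apart.

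Heat shock proteins hold unfolded proteins in a soluble state, refold them or pass them on for degradation. Small heat shock proteins (CRYAB, HSPB1, HSPB7) bind unfolding clients without ATP. HSP70 proteins refold them in an ATP cycle that J-domain proteins such as DNAJB1 start and nucleotide exchange factors such as HSPH1 and BAG3 reset, and HSP90 completes the folding of many kinases and receptors. In striated muscle these proteins guard the Z-disc, titin and desmin against mechanical damage, and BAG3 hands damaged filamin to autophagy. Heat shock factor 1 induces many of them by binding heat shock elements, which are inverted repeats of GAA and TTC.

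The 250 bases upstream of RefSeq start sites (GRCh38.p14) were read for 9 of the 10 genes, in 12 entries, and CRYAB had none in the table. The 6 printed here are those of the HSPA1A and HSPA1B pair, of 3 other genes with heat shock element letters near the start, and of HSPB7, which has none in this window. Capitals mark GAANNTTC or TTCNNGAA, 2 units of the element, and each of these motifs reads the same on both strands. Overlapping matches run together. By the deposited annotation (hg38), the genes start and end at chr6:31815543-31817946 (HSPA1A), chr6:31827738-31830254 (HSPA1B), chr11:123057489-123063230 (HSPA8), chr7:76302673-76304295 (HSPB1) and chr1:16014028-16019594 (HSPB7). CRYAB lies at chr11:111908564-111923722, DNAJB1 at chr19:14514769-14529770, HSPH1 at chr13:31134973-31162388, HSP90AA1 at chr14:102080738-102139699 and BAG3 at chr10:119651370-119677819. The printed regions are chr6:31815293-31815542 (plus strand) for HSPA1A, chr6:31827488-31827737 (plus) for HSPA1B and chr11:123062137-123062386 (minus) for HSPA8. They are chr14:102087045-102087294 (minus) for HSP90AA1, chr19:14518398-14518647 (minus) for DNAJB1 and chr1:16018044-16018293 (minus) for HSPB7. Each sequence runs 5′ to 3′ towards its RefSeq start site. The windows of HSPA8, HSP90AA1, DNAJB1 and HSPB7 lie inside the annotated span of the gene, so they precede an internal start site. Those of HSPA1A and HSPA1B lie just upstream of the span.
HSPA1A: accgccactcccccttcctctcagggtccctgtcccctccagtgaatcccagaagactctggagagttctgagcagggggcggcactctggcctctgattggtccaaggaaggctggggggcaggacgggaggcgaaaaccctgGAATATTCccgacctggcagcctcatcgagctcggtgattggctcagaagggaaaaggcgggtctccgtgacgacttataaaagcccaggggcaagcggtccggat
HSPA1B: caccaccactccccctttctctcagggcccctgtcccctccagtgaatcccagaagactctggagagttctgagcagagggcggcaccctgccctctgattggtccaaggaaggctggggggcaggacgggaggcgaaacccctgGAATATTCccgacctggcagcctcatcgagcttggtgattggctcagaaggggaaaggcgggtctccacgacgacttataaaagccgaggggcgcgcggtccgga
HSPA8: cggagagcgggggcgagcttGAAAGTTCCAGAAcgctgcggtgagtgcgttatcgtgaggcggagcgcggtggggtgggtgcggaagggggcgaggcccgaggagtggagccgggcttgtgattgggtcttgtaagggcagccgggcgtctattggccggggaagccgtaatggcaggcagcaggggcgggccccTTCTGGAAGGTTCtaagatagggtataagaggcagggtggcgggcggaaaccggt
HSP90AA1: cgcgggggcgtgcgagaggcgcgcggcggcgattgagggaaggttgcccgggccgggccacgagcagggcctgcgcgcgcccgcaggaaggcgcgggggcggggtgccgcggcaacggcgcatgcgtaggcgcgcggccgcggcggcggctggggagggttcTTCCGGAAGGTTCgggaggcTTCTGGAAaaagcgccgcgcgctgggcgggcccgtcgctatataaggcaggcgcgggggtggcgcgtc
DNAJB1: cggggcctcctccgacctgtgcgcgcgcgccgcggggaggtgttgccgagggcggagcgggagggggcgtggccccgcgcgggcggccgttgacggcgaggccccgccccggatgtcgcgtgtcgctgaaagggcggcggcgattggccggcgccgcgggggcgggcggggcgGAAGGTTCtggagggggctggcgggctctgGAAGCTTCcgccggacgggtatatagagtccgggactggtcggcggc
HSPB7: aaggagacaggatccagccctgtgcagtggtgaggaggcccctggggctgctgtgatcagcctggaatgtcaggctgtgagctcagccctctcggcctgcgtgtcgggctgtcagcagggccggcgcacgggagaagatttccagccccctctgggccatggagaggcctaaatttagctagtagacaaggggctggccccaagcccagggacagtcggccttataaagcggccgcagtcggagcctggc

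The 2-unit letters stood in a single entry of 6 of the 9 genes, which had 12 entries in all (those of HSPB1 are not printed). The other entries of DNAJB1 and HSP90AA1, also not printed, held none. These letters stood in 11.6% of all 35116 RefSeq promoter windows of the same length, a share per window and not per gene. In HSPA1A they began 106 bases before the start site and in HSPA1B 105 bases. A run of 3 units (GAANNTTC followed by NNGAA, or TTCNNGAA followed by NNTTC) was found in HSPA8 and HSP90AA1, and in 0.441% of all windows. HSPA1A, HSPA1B and HSPB7 had a TATAAA box 28 to 30 bases before the start, which 10.7% of windows hold on either strand. HSPB7 also matched the motif of MEF2, a family of muscle transcription factors, 82 bases before its start. That motif was searched after the HSPB7 sequence had been seen, and 2.8% of windows hold it. The CArG box of the factor SRF was searched as well. It was found in no entry of these genes, and 1.16% of windows hold it. BAG3 and HSPH1 held none of the heat shock element letters in this window. These are matches of letters and not measured binding.

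The printed HSPA1A and HSPA1B windows, shifted by 1 base, were identical at 235 of 249 positions. Much of their transcripts is shared too, which bears on every value of these genes. Of all 100-base windows in the GENCODE release 29 transcripts of HSPA1A, 67.3% also occur in HSPA1B, and 72.7% of those of HSPA1B occur in another gene, nearly all in HSPA1A. At 150 bases the shares were 63.2% and 70.0%. The deposited counting left out read pairs that match several places, so both genes were counted from the stretches where they differ. Also, 36.6% of the exonic bases of HSPA1B lie under AL671762.1, an annotated gene on the same strand, which itself had 0 or 1 count in each replicate sum, and pairs that overlap both were not assigned. The levels of HSPA1A and HSPA1B are thus uncertain, and the ratio of their counts is no ratio of their transcripts. Of the other genes, CRYAB shared 7.55% of its 100-base windows, nearly all with HSPB2, HSP90AA1 2.99%, DNAJB1 2.51%, HSPB1 2.37% and the remaining 4 genes none. The read length is not given in the sources used here.

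Per gene length, HSPB7 and HSPB1 were the highest of the 10 genes, CRYAB was the fifth, and HSPA1A, whose counting leaves out shared reads, was the lowest. HSPB7, a small heat shock protein concentrated in heart and skeletal muscle, averaged 918 CPM per kilobase over the 6 replicate sums (806.5 to 986). HSPB1, also called HSP27, averaged 549 CPM per kilobase (415.3 to 631.5). HSPA8, the constitutive HSC70 of all cells, averaged 220.3 (182.8 to 241.5) and HSP90AA1, the inducible cytosolic HSP90, 175.2 (148.9 to 220.1), and these levels overlapped. CRYAB, alpha B-crystallin, a desmin chaperone, followed at 106.2 (86.41 to 123.7) and BAG3 at 59.1 (54.33 to 70.27). HSPA1B at 37.8 (27.46 to 49.83) overlapped DNAJB1 at 24.9 (21.84 to 29.61). HSPH1, the HSP110 exchange factor, was at 18.1 (14.43 to 20.86) and HSPA1A at 5.24 (4.489 to 6.047). All other neighbours in this order had ranges that did not overlap. On this scale HSPB7 and HSPB1 stood at percentile 99.9 of the tested genes, HSPH1 at 90.7 and HSPA1A at 68.2.

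**Figure D1:**
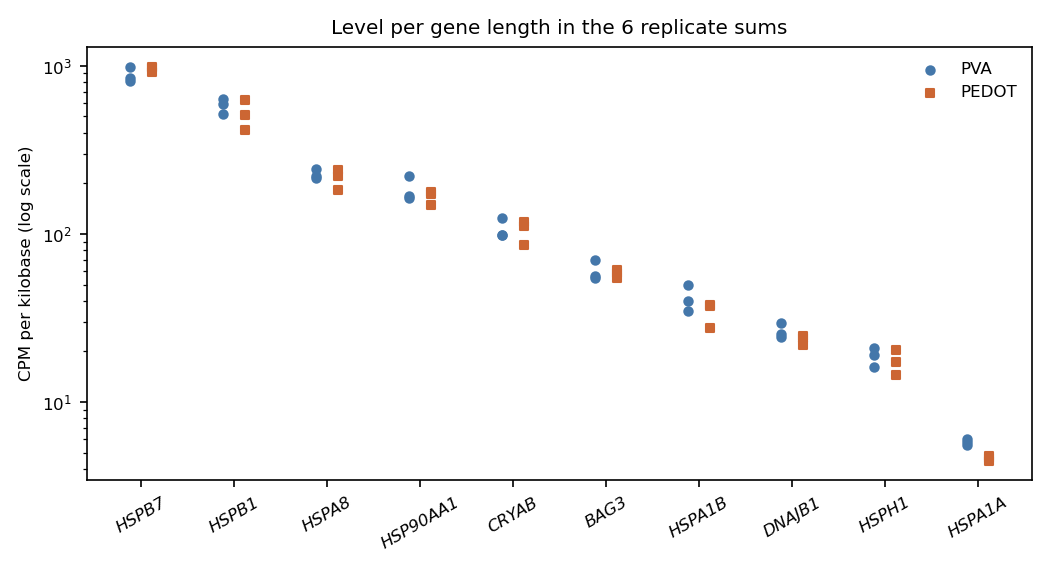
Level of each gene in CPM per kilobase of exon (log axis) in the 3 PVA sums (circles) and 3 PEDOT sums (squares). Genes are ordered by their mean, from HSPB7 at 918 to HSPA1A at 5.24, and the scaffolds overlap in every gene but HSPA1A.

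Between the scaffolds, 9 of the 10 genes were lower on PEDOT and HSPB7 was higher, but the differences were small and none passed the test across all genes. The median log2 fold change of the 10 genes was -0.125, and that of all 21298 genes tested was -0.006. The share of all genes below 0 was not counted. The median of the 10 was -0.015 without PVA replicate 2, -0.024 without PEDOT replicate 3 and -0.198 without PVA replicate 3. In edgeR's quasi-likelihood test with Benjamini-Hochberg adjustment over all genes, 0 of the 10 passed, and over all genes 0% did. At an unadjusted p under 0.05, 1 of the 10 was counted, against 0.892% of all genes, and DESeq2 also called 0. The labels share replicate numbers between scaffolds, and same-numbered samples deviated together. When the replicate number was added as a block (the paired fit), 0 of the 10 genes passed and 0.268% of all genes did. There 4 of the 10 had an unadjusted p under 0.05, against 8.32% of all genes. Single replicates decided several signs. Without PEDOT replicate 3 the log2 fold changes of HSPA8 (0.03), CRYAB (0.09) and HSPH1 (0.02) were above 0 and that of HSPB1 was -0.03. Without PVA replicate 2 those of CRYAB (0.09), BAG3 (0.07) and HSP90AA1 (0.003) were above 0. HSPB7 was at 0.06 without PVA replicate 1 and 0.21 without PVA replicate 3.

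HSPA1A, the stress-inducible HSP70, was the gene whose scaffolds were fully separated. Its replicate sums were at 13.43, 14.01 and 14.54 CPM on PVA and at 11.27, 10.79 and 11.49 CPM on PEDOT. Single libraries lay between 12.43 and 16.04 CPM on PVA and between 10.58 and 12.25 CPM on PEDOT, so all 6 PEDOT libraries were below all 6 PVA libraries. PVA sums had a mean of 13.99 ± 0.56 CPM and PEDOT sums 11.18 ± 0.36 CPM (SD, n = 3), and the fitted log2 difference was -0.32 ± 0.11 (SE). With any 1 replicate of either scaffold left out it lay between -0.353 and -0.295. HSPA1A was 1 of the 10 genes with 3 PEDOT sums below the 3 PVA sums, against 2.31% of all genes. None of the 10 had them all above, against 2.28%. The difference of HSPA1A was known when the list was chosen, so these counts support nothing about the 10 genes. HSPA1A counts were the lowest of the 10 genes, at 247 to 479 per library, and most of its transcript is shared with HSPA1B.

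HSPA1B, the neighbouring copy, was lower on PEDOT within every pair, but the scaffolds overlapped. Its sums were at 100.8, 125.4 and 87.06 CPM on PVA and at 93.48, 94.77 and 69.12 CPM on PEDOT, a log2 fold change of -0.284 ± 0.175 (SE). The paired value was -0.28 ± 0.07, with an edgeR adjusted p of 0.154. Without PVA replicate 2 the unpaired value was -0.126, and without PEDOT replicate 3 it was -0.152. The paired fit gave -0.37 without replicate 1 (edgeR adjusted p 0.0119), a setting that called 170 of all genes. It gave -0.22 without replicate 2 (edgeR adjusted p 0.607) and -0.258 without replicate 3 (0.295). Replicate 3 was the lowest on each scaffold, which was not so for HSPA1A. When the counts of both copies were joined, a choice made after the data were seen, the sums were 101.6 to 139.4 CPM on PVA and 80.61 to 105.6 CPM on PEDOT. For the joined counts the log2 difference came to -0.29 ± 0.16 (SE) unpaired and -0.29 ± 0.07 paired, and neither edgeR adjusted p passed (0.99999 and 0.136). HSPA1A made up 12.04 ± 2.14% of the joined counts on PVA and 11.74 ± 2.19% on PEDOT (SD, n = 3; two-sided exact permutation p = 0.9, where the smallest possible is 0.1).

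DNAJB1, the J-domain protein that feeds clients to HSP70, was the third gene lower on PEDOT in 3 of 3 pairs. PVA sums averaged 96.5 ± 10.3 CPM and PEDOT sums 85.6 ± 5.26 CPM (SD, n = 3), and the log2 difference was -0.17 ± 0.10 (SE), which was -0.079 without PVA replicate 2. Its sums were at 88.55, 108.1 and 92.74 CPM on PVA and at 79.7, 89.84 and 87.23 CPM on PEDOT, so PVA replicate 1 lay within the PEDOT range. Of all genes tested, 15.6% were lower on PEDOT in 3 of 3 pairs, against these 3 of the 10, and 13.3% were higher in 3 of 3 pairs, against 0 of the 10.

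The other HSP70 cycle genes and HSP90AA1 differed in direction between the pairs. HSPA8 sums were at 1072, 1171 and 1044 CPM on PVA and at 1170, 1067 and 886.6 CPM on PEDOT. Its log2 differences within the pairs were 0.13, -0.14 and -0.24. PEDOT replicate 1 was level with PVA replicate 2, and its technical libraries were at 1356 and 1020 CPM, farther apart than the scaffold means of 1096 and 1041 CPM. HSPH1 sums were at 159.8, 175 and 136.1 CPM on PVA and at 172.1, 145.6 and 121.1 CPM on PEDOT, and replicate 3 was lowest on each scaffold. BAG3 sums were at 150.3, 193 and 153.8 CPM on PVA and at 160.6, 167.4 and 149.2 CPM on PEDOT, and PVA replicate 2 stood above the rest. HSP90AA1 showed the same high value in PVA replicate 2. It was at 885, 1155 and 860.5 CPM on PVA and at 925.3, 909.4 and 781.7 CPM on PEDOT.

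Of the 3 small heat shock proteins among the 10 genes, HSPB7 had a value above 0. Its sums were at 3153, 3309 and 3855 CPM on PVA and at 3798, 3592 and 3834 CPM on PEDOT, a log2 fold change of 0.12 ± 0.14 (SE). PVA replicates 1 and 2 were low, and replicate 3 was level between scaffolds. The median of the 12 cardiomyocyte markers was also higher on PEDOT in every pair, by 0.24, 0.13 and 0.11 on the log2 scale, against 0.27, 0.12 and -0.01 for HSPB7, and the part of cell composition in these values was not tested. CRYAB sums were at 434.9, 542.9 and 433.6 CPM on PVA and at 518, 487.7 and 379.2 CPM on PEDOT, and its log2 fold change was -0.03 ± 0.16 (SE). HSPB1 sums were at 889.6, 950.4 and 780.4 CPM on PVA and at 946.1, 766.3 and 625 CPM on PEDOT, a log2 fold change of -0.17 ± 0.17 (SE). CRYAB and HSPB1 were higher on PEDOT in pair 1 and lower in pairs 2 and 3.

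**Figure D2:**
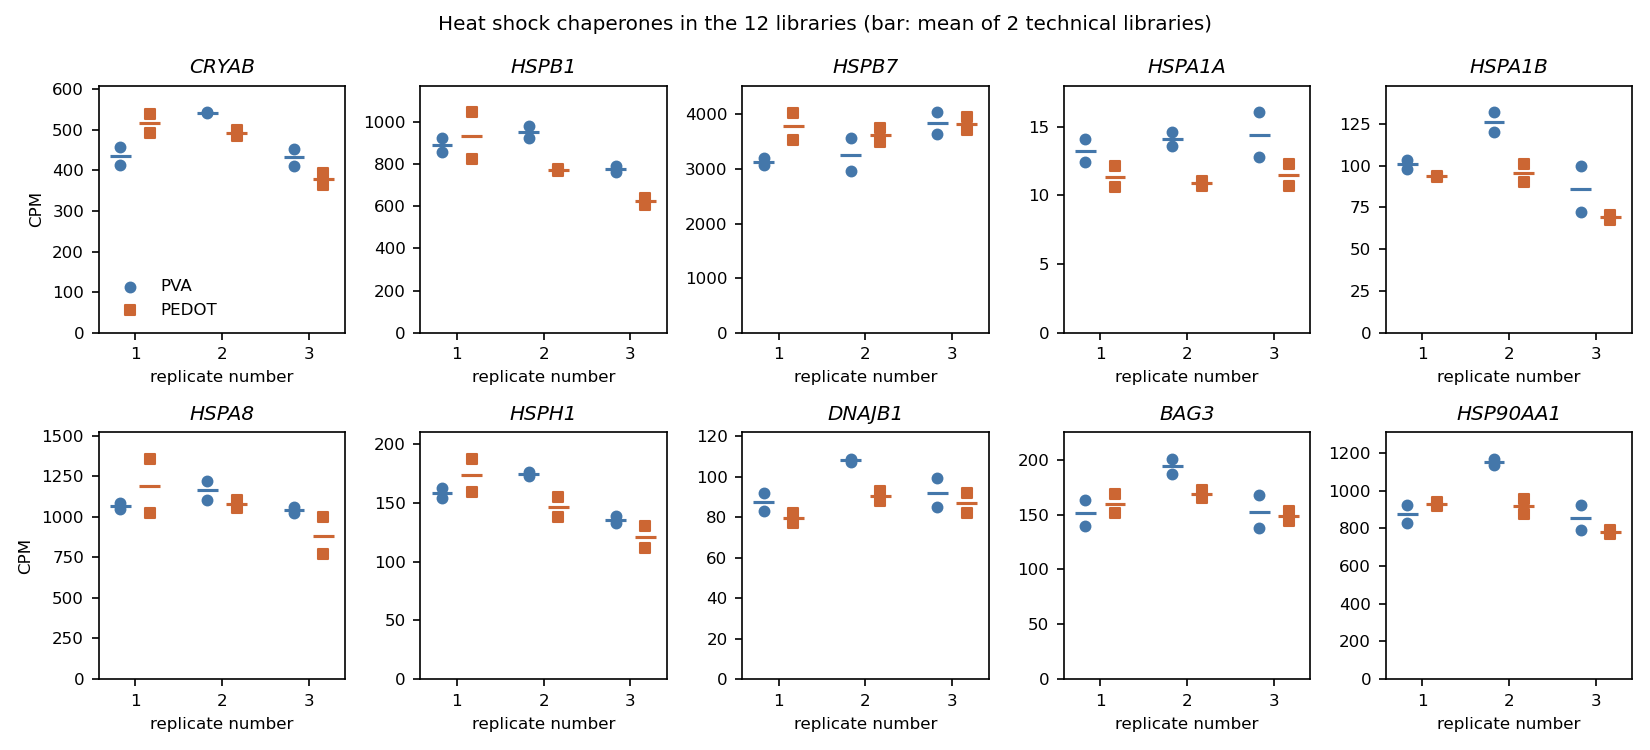
CPM of the 10 genes (axes from 0) by replicate number for PVA (circles) and PEDOT (squares), with each point a technical library and each bar the mean of a pair of libraries. All 6 PEDOT points of HSPA1A lie below its 6 PVA points, and in the other genes the scaffolds overlap.

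The pairs disagreed in a way most of the 10 genes shared. Their median log2 difference was 0.09 in pair 1, -0.27 in pair 2 and -0.18 in pair 3, while the median of all tested genes was -0.001, -0.02 and 0.004. In pair 1, 7 genes were higher on PEDOT, and HSPA1A, HSPA1B and DNAJB1 were lower. In pair 3 all 10 values were below 0, and in pair 2 HSPB7 was the only one above 0. Fibroblast markers differed between the pairs as well, at medians of 0.87, 0.06 and 0.21. Smooth muscle markers had medians of 0.065 in pair 1, -0.30 in pair 2 and -0.44 in pair 3, and summed to 1269 to 2258 CPM on PVA and 1013 to 2009 CPM on PEDOT. Of these 6 markers, 4 were below 0, and ACTA2 and RGS5 were called lower on PEDOT in the paired fit (edgeR adjusted p 0.0334 and 0.00795). The part of either cell type in the chaperone values was not tested. To ask whether the scaffold difference itself varied with the replicate number, an interaction was fitted to the 12 libraries, a test added after the data were seen in which technical libraries stand for the error. It called 0 of the 10 genes at an edgeR adjusted p of 0.05 and 0.282% of all genes, and 4 of the 10 had an unadjusted p under 0.05, against 10.4% of all genes. CRYAB had the smallest (0.0022, adjusted 0.189).

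**Figure D3:**
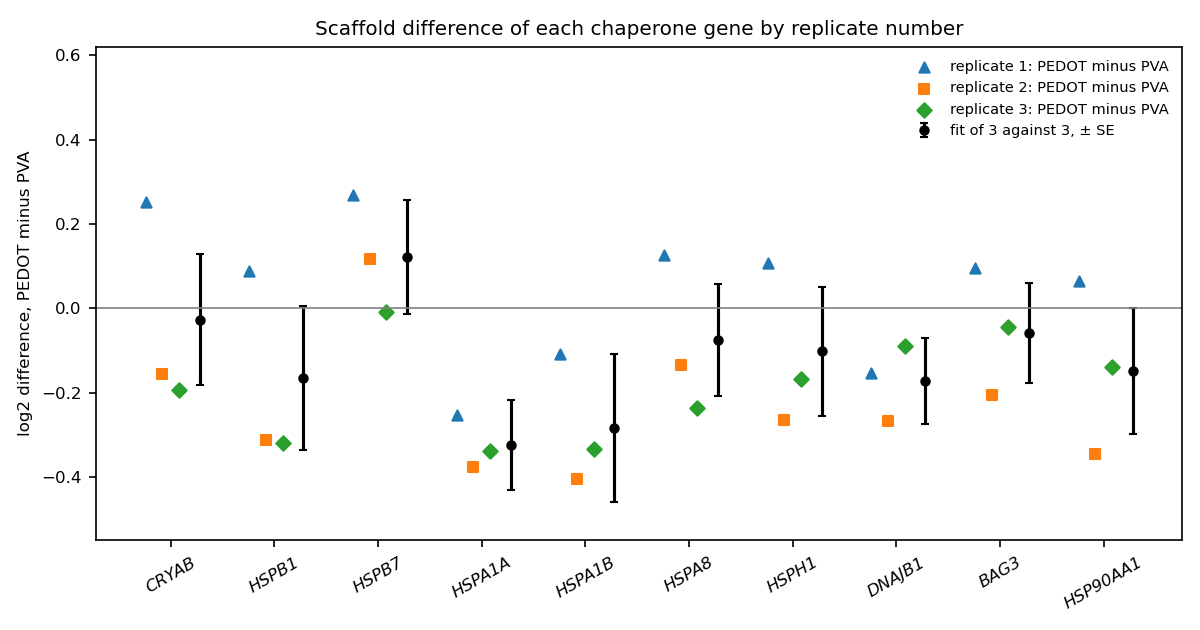
Log2 difference between PEDOT and PVA for each gene in each same-numbered pair (coloured symbols), with the fitted value of 3 against 3 sums and its standard error (black). Pair 1 lies above 0 in 7 genes and pair 2 below 0 in 9.

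An edgeR fit with scaffold and replicate number tested the number by both its coefficients together and the scaffold by a single one. The unadjusted p was smaller for the scaffold in HSPA1A, HSPB7 (0.215 for the number and 0.135 for the scaffold) and DNAJB1 (0.0339 and 0.0198). It was smaller for the number in the others. How often this holds over all genes was not counted. Of all genes, 0.268% passed the adjusted test of the scaffold. In that fit, 4 of the 10 genes passed edgeR's test of the number (adjusted p under 0.05), against 31.8% of all genes, a share not far from theirs. The 4 were HSPA1B (adjusted p 0.00158), HSPH1 (0.0120), HSPB1 (0.0214) and CRYAB (0.0491). Replicate 3 was lower than replicate 1 by 0.33 on the log2 scale in HSPA1B, 0.37 in HSPH1, 0.40 in HSPB1 and 0.23 in CRYAB. HSP90AA1 (0.0541), BAG3 (0.0666), DNAJB1 (0.0885) and HSPA8 (0.146) did not pass, nor did HSPB7 (0.341) or HSPA1A (0.833). The call of CRYAB held in 12 of 26 other settings, those of HSPA1B and HSPH1 in 25 and that of HSPB1 in 23. Which of the 10 genes were called changed when a replicate was left out, which leaves its number with a single sum. Cell markers moved with the number too. Fibroblast markers summed to 3390 to 7033 CPM in replicate 1, 709.2 to 990.6 CPM in replicate 2 and 2820 to 3791 CPM in replicate 3. Their median log2 difference of replicate 2 from replicate 1 was -2.51, but POSTN went the other way (1.55). PDGFRA was higher in replicate 3 than in replicate 1, by 0.97. The part of cell makeup in the chaperone differences was not tested.

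Of the variance in log2 CPM over the 12 libraries, the scaffold took 67.7% for HSPA1A and 0.7 to 27.7% for the other 9 genes. The mean over all tested genes was 8.3%. The scaffold difference of HSPA1A was known when the list was chosen, so its scaffold share is a description alone. The replicate number took 2.1% for HSPA1A, 28 to 64.4% for the others, and 46.7% on average over all genes. Technical libraries took 8.7% (CRYAB) to 42.1% (HSPA8) of the variance and 27.5% for HSPA1A, against a mean of 31.7% over all genes. The median technical log2 difference was 0.08 to 0.13 in 9 of the genes and 0.19 in HSPA1A, and it was 0.18 for the median tested gene. The largest were in HSPA1B of PVA replicate 3 (0.46) and in HSPA8 of PEDOT replicate 1 (0.41), each larger than the scaffold difference of its gene. In HSPA1A the largest was 0.32, in PVA replicate 3, about the size of its scaffold difference (-0.32).

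**Figure D4:**
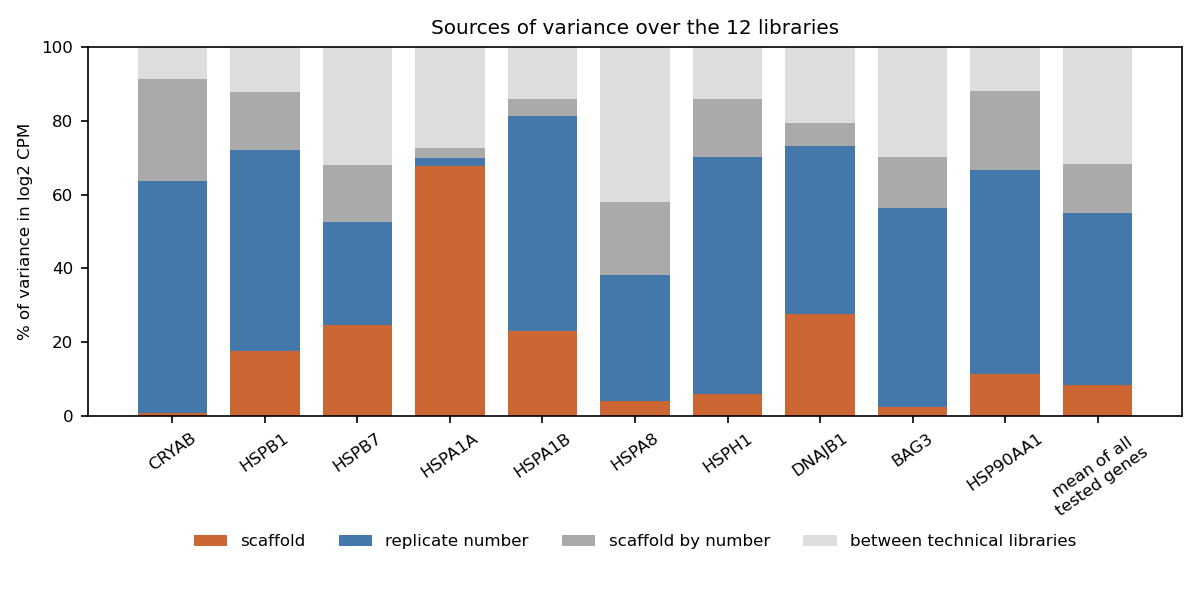
Share of the variance in log2 CPM over the 12 libraries that lies between scaffolds, between replicate numbers, in their combination and between technical libraries, for each gene and as the mean of all tested genes. HSPA1A, whose scaffold difference was known when the list was chosen, has 67.7% between scaffolds, and CRYAB 0.7%.

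Apart from HSPB7, the genes correlated positively with each other, from barely to closely. Over the 12 libraries, HSPA1B and HSP90AA1 had r = 0.894 in log2 CPM, HSPA8 and HSPH1 0.886, and CRYAB with HSPA1B 0.806. HSPB7 had r from -0.52 to -0.196 with the other 9. HSPA1A had r from 0.067 with CRYAB to 0.544 with DNAJB1, and the lowest value among the 9 was 0.007, between HSPA8 and DNAJB1. These values describe 12 libraries that share replicates, depth and cell makeup in groups.

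Most other genes of the chaperone network also had values just below 0. Of 81 other listed genes, 78 were tested, 62 lay below 0 and 16 above, with a median log2 fold change of -0.054, and 0 passed edgeR's test without or with the block. At an unadjusted p under 0.05 there were 2 and 11 of the 78, against 0.892% and 8.32% of all genes, and DESeq2, run without the block, called 0 genes in the whole table. The median of all tested genes was -0.006, and how many of them lay below 0 was not counted. All listed genes were measured in the same 6 sums, so their signs are not separate observations. All 10 chaperonin genes, which fold actin and tubulin or serve mitochondria, lay below 0 with a median of -0.10. They shared the split between pairs, since 7 of the 10 were higher on PEDOT in pair 1 (median 0.039) and 0 in pairs 2 and 3. CCT5, a subunit of the cytosolic ring, averaged 110.3 ± 8.34 CPM in PVA sums and 102 ± 4.3 CPM in PEDOT sums (SD, n = 3). Of the 15 HSP90 relatives and co-chaperones, 14 lay below 0, with a median of -0.06. HSP90AB1, the constitutive HSP90, averaged 857.2 ± 70.1 and 779.6 ± 74.6 CPM. The 12 genes of endoplasmic reticulum stress had a median of -0.14. Of these, PDIA4, a disulfide isomerase, had sums at 113.7, 100.1 and 90.7 CPM on PVA and at 86.68, 81.83 and 83.4 CPM on PEDOT, with no overlap. CALR, which encodes calreticulin, averaged 537.4 ± 27.8 and 470.1 ± 32.9 CPM and did not overlap either. Both were named for their small p between scaffolds, so this separation is partly a result of the choice. Of all genes, 2.31% had the PEDOT sums all below the PVA sums.

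HSPA6, an HSP70 gene that is strictly stress-induced, was lower on PEDOT within each pair. Its sums were at 19.38, 33.95 and 14.9 CPM on PVA and at 15.93, 20.2 and 11.17 CPM on PEDOT, and its paired log2 fold change was -0.49 ± 0.10 (SE, edgeR adjusted p 0.0642). SQSTM1, the autophagy receptor p62 that works with BAG3, averaged 498.6 ± 79.2 CPM in PVA sums and 402.7 ± 27.8 CPM in PEDOT sums (SD, n = 3), with a paired value of -0.30 ± 0.07 (edgeR adjusted p 0.137). HSF1, the master factor of the heat shock response, averaged 89.2 ± 7.73 and 94.4 ± 10.6 CPM, and its log2 fold change was 0.08 ± 0.11 (SE). HSF4, a related factor, was low at 4.3 ± 2.2 and 6.46 ± 1.35 CPM. It was higher on PEDOT within each pair, with a paired value of 0.655 ± 0.183 (SE, edgeR adjusted p 0.235). HSPA2, another HSP70 gene, was under 1 CPM in every sum. Its paired value was 0.875 ± 0.371 (edgeR adjusted p 0.551), higher on PEDOT in pairs 2 and 3 and lower in pair 1. DNAJB2, a J-domain gene, was higher on PEDOT within each pair, with a paired value of 0.158 ± 0.063 (edgeR adjusted p 0.507). HSPB3, a small heat shock protein of muscle, averaged 66.1 ± 16.3 and 75.6 ± 16.2 CPM and was higher on PEDOT within each pair. HSPB8, the small partner of BAG3, averaged 410.1 ± 75.3 and 396.5 ± 55.9 CPM.

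**Figure D5:**
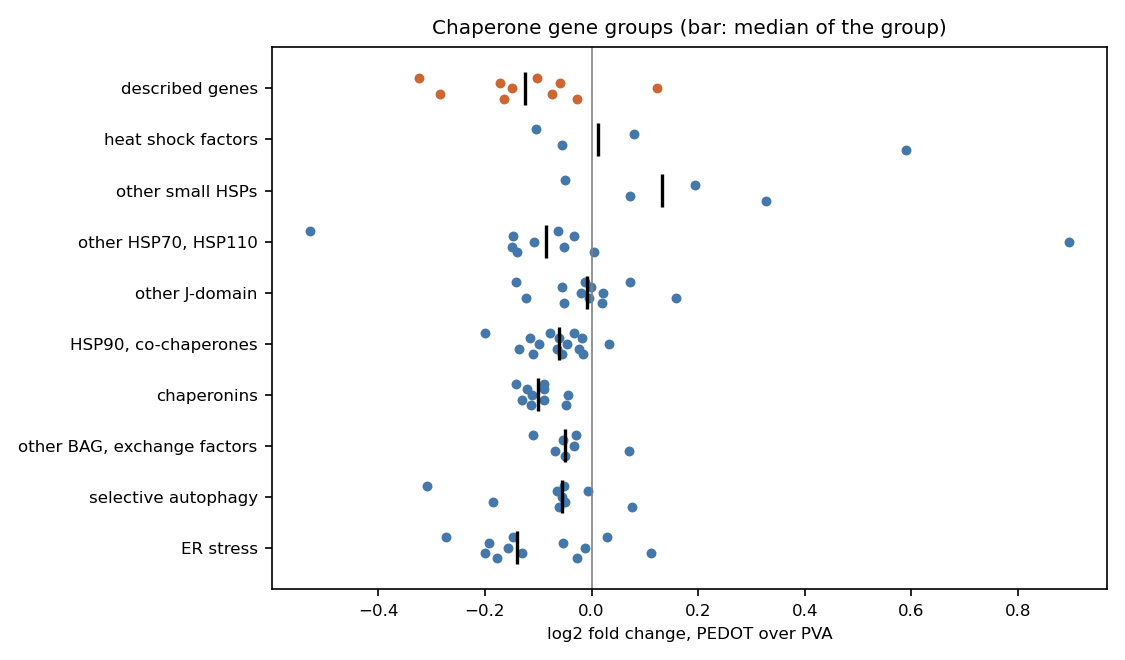
Log2 fold change of PEDOT over PVA for each tested gene of the 10 described genes and 9 related groups (points), with the group median (bar). The 10 chaperonin genes are all below 0, and no gene passed the test.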

How the data were processed

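RNA of 12 libraries was measured, 3 biological replicates with 2 technical libraries on each scaffold. Values in the deposited table are raw counts, with pairs of reads counted per gene name and no normalization. Counts were made with featureCounts 2.0.1 in paired-end, reversely stranded mode on GENCODE release 33, per the file headers, and pairs that map or overlap ambiguously were not counted, since no option for them was set. FastQC, STAR, DESeq2, edgeR and hg38 are named in the submitters' processing notes, with the aligner's settings not given in the sources used here.

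Technical libraries were summed to 6 sums. The 21298 genes that filterByExpr retained (minimum total 15, minimum count 10) were scaled with TMM. The model had the scaffold alone and was tested with glmQLFTest in edgeR 4.0.16 under R 4.3.3, two-sided, at a Benjamini-Hochberg adjusted p of 0.05. A second fit with scaffold and replicate number gave the paired values and the test of the number. Standard errors are the log2 fold change over the square root of F. CPM uses TMM factors, and log2 CPM a prior count of 2. Deviations of same-numbered sums from scaffold means correlated at 0.678, 0.703 and 0.503 over genes, so by the rule of every pair above 0.1 the numbers were read as pairs, although no label states a shared culture. The procedure was also run on simulated counts, and no result of that run is used here. DESeq2 1.42.0, other scalings, filters and left-out samples were alternatives.

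The genes and lists were chosen with earlier results of these data known. Named genes are the 10, up to 3 of smallest p in each of 9 related lists, and the 3 closest in pattern to HSPH1 and to CRYAB. AL671762.1, HSPB2, ACTA2 and RGS5 were named after their values were seen. Promoters and names come from RefSeq, and transcripts for shared windows from GENCODE release 29, without coordinates.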

Additional observations from a re-analysis of the deposited data

How the results depend on the processing

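The 10 genes stayed uncalled between scaffolds in 41 of 42 other settings. The exception was the fit with the replicate block and without replicate 1, which called 1, HSPA1B (log2 fold change -0.37, edgeR adjusted p 0.0119). The count of called genes between scaffolds was 57 with the replicate block. With the block and replicate 1, 2 or 3 left out it was 170, 22 and 284, and with the block and single libraries left out, chosen after the data were seen, it was 73 and 22 (PVA replicate 1), 45 and 28 (PVA replicate 2), 36 and 63 (PVA replicate 3), 15 and 4 (PEDOT replicate 1), 35 and 63 (PEDOT replicate 2) and 27 and 39 (PEDOT replicate 3). It was 0 in all settings without the block. The median log2 fold change of the 10 genes ran from -0.199 to -0.015. HSPA1A, HSPA1B, HSPB1, HSPB7 and DNAJB1 kept their sign in all 42 settings, from -0.41 to -0.20 for HSPA1A, and CRYAB in 37. The count of the 10 genes called between replicate numbers was 4. It was 7 with library size only, 7 with every gene with a count, 2 with the lower-numbered technical libraries alone and 7 with the higher-numbered ones. Over all genes, 6703, 7702, 4997 and 4971 were called in these settings, against 6776 in the main fit. Leaving out a replicate or a library also changed the count of the 10 genes in some settings. Without a replicate, its number keeps a single sum. The cause was not tested. Depth limits HSPA1A most, the gene with the fewest counts of the 10.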

Other observations

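Of the 4 tested small heat shock proteins outside the 10 genes, 3 were called between replicate numbers, against 31.8% of all genes, and HSPB2, with 71 counts in all, was not (edgeR adjusted p 0.572). HSPB6, also called HSP20, which smooth and cardiac muscle express, was at 32.77, 5.742 and 22.52 CPM in the PVA sums and at 48.82, 6.031 and 21.66 CPM in the PEDOT sums, so replicate 2 was low on each scaffold. The log2 difference of replicate 2 from replicate 1 was -2.78 (edgeR adjusted p of the number 1.7e-08). The 6 smooth muscle markers summed to 1697 to 2258 CPM in replicate 1, 1013 to 1332 CPM in replicate 2 and 1375 to 1999 CPM in replicate 3. Their median log2 difference of replicate 2 from replicate 1 was -1.01, and that of the 8 fibroblast markers was -2.51. The part of either cell type in the HSPB6 values was not tested. HSPB3 went the other way, with replicate 2 above replicate 1 by 0.68 (edgeR adjusted p 4.9e-05), and HSPB8 likewise by 0.45 (0.0014). HSPA6, at 33.95 CPM in PVA replicate 2, was also highest in replicate 2 on each scaffold (adjusted p 4.2e-05).

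Among 11795 other genes with a mean of 5 CPM or more, those with a pattern over the 12 libraries most like HSPH1 were ZPR1 (r = 0.908), ITPRID2 (0.907) and KIAA0930 (0.888). Those most like CRYAB were FAM50A (0.949), RPL6 (0.915) and DYNLL1 (0.91). These r values describe 12 libraries from 6 replicates and were picked as the highest of many.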
